A study of Arachis hypogaea with 14 samples.

Results

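The small RNAs described here are the 33 different sequences of 22 nt that the deposited small RNA table of peanut (Arachis hypogaea) seeds lists as predicted candidates, with names that start with PC-, among 795 different sequences and 382 predicted candidates in all. They were chosen by name and length, not by any measured value. The seeds came from 2 recombinant inbred lines of generation 8, 8106 with medium pods and 8107, labelled a super-pod variety, taken 15 and 35 days after flowering (DAF). Each of the 4 groups of line and stage had 3 small RNA libraries, and a further 2 degradome libraries, 1 per line, covered both stages. The labels name no transgene and no treatment. Pod size and the other differences between these 2 inbred lines cannot be told apart. Whether replicates were taken from different plants is not in the labels, so the tests weigh differences against library-to-library spread that could be technical.

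Plant miRNAs are cut by a Dicer-like enzyme from the stem of a folded precursor as a duplex of a 5p and a 3p arm, each with a 3′ overhang, and 1 strand is loaded onto an Argonaute protein that cuts matching transcripts. Most are 21 nt long, and a U as first base favours loading onto AGO1. The class of 22 nt is known for starting the production of secondary, phased small RNAs from the transcripts it cuts, in legumes above all from transcripts of NB-LRR disease resistance receptors, the targets of miR482, miR2118, miR1507 and miR1510. Small RNAs of 24 nt are mostly siRNAs that guide DNA methylation and often start with A.

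The sequences below are those on which the results turn, as the deposited table gives them, 5′ to 3′ with T for U, and with the seed (bases 2 to 8) in capitals. The first set shows the most abundant candidate beside the annotated entries that it resembles.
PC-3p-231_14884: tTTCATTCcatacatcatctat
gma-MIR1507b-p3_2ss2CT17GA: tTTCATTCcatacatcatc
mtr-miR1507-3p_L+1R-1: cCCTCGTTccatacatcatcta
The second set shows a candidate that resembles the 3p arm of MIR156 hairpins, with the entry nearest to it in sequence and 1 of the 2 that share its seed.
PC-3p-646_6682: tGCTCACTctcttgctgtcacc
ptc-MIR156b-p3_1ss13TC: gCTCACTCtctacctgtcacc
gma-MIR156o-p3_2ss21GA23TA: tGCTCACTactctttctgtcaga
The third set shows a 5p and a 3p candidate whose levels moved together, and the 2 arms of a hairpin listed in 8107 alone.
PC-5p-362_10574: aGAGACCCgagatgcatacatt
PC-3p-1355_3733: tGTGTGTGtttctggtctccac
PC-5p-34874_230: aGTGACTCggatattgattact
PC-3p-4234_1541: tAATCCATatccgaagcactcg
The fourth set shows further candidates that differed between lines or stages.
PC-3p-2588_2288: tTATTGTCggactaaggtgtct
PC-5p-2193_2613: tCAGTGCAgttagagtctagac
PC-5p-7266_959: aGGACACGgcgaatcctctatt
PC-3p-20709_374: aTGATGCAcatgaaagtttaca

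All 33 candidates had different seeds, and 3 of them shared a seed with an annotated entry of the table. PC-3p-231_14884 held the whole of gma-MIR1507b-p3_2ss2CT17GA, a soybean-named hairpin arm of 19 nt, as its first 19 bases. Against mtr-miR1507-3p_R-3, a known miR1507 form named after Medicago truncatula, it had 3 mismatches, T1C, T2C and A5G, where the candidate's base comes first and positions count from 1 at its 5′ end. The 22 nt known form mtr-miR1507-3p_L+1R-1 had the same 3 mismatches with a shift of 1 base. PC-3p-646_6682 shared its seed with gma-MIR156u-p3 and gma-MIR156o-p3_2ss21GA23TA and differed from ptc-MIR156b-p3_1ss13TC by T13A and G14C. PC-5p-47463_170 began with all 21 bases of mtr-MIR5206a-p5_2ss20GT21GC. These resemblances are of sequence within the table only, and no genome was used here, so the loci are not placed.

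The candidates of 22 nt mostly began with U, and those of 24 nt with A. The first base was U in 21 of the 33 (63.6%), A in 8 and C in 4, and none began with G. Among 63 predicted candidates of 21 nt the share with U was 44.4%, among 47 known entries of 22 nt it was 40.4%, and among 273 predicted candidates of 24 nt it was 15.0%, with 77.7% beginning with A. These shares describe sequences of 1 table and were not tested. The 33 were 14 of the 5p and 19 of the 3p arm. The GC content ran from 27.3% to 68.2% with a median of 45.5%, beside a median of 45.8% over all 795 sequences.

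**Figure D1:**
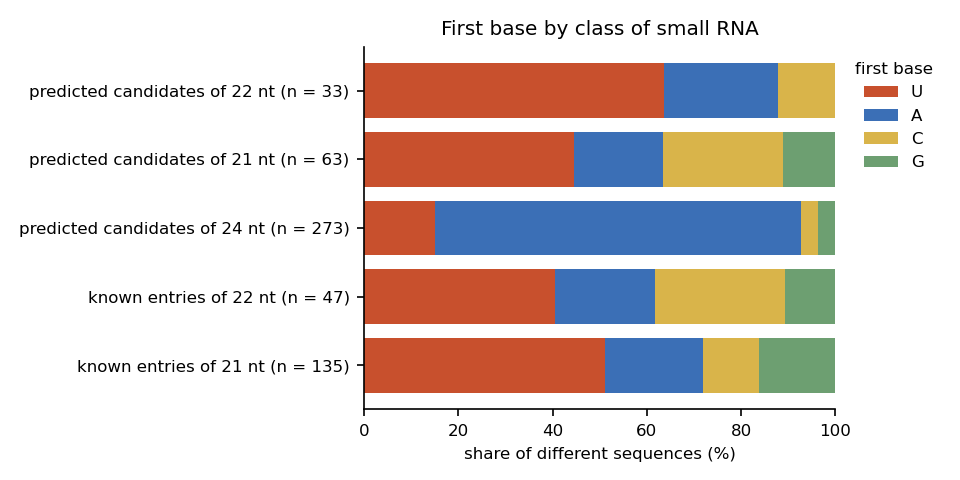
Share (%) of different sequences that begin with each base, for 5 classes of small RNA, with the number of sequences in each. The predicted candidates of 22 nt begin with U in 63.6% and none with G, and those of 24 nt begin with A in 77.7%.

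Partner arms gave a partial check of the label. The table's precursor index put a 5p and a 3p arm together in 8 hairpins that held 11 of the candidates, while 22 had only 1 arm listed. In 3 hairpins both arms were 22 nt. When the 2 arms were folded onto each other, 4 hairpins (16, 18, 31 and 51) had 3′ overhangs of 2 bases on both arms, the form a Dicer cut leaves, and hairpin 63 had it on 1 arm. Hairpins 5, 42 and 99 had it on neither arm, with 3′ overhangs of 0 and 1, 7 and 5, and 1 and 1 bases on the 5p and 3p arm. The 22 candidates with 1 listed arm could not be checked in this way and rest on the authors' prediction alone. The index that joins the arms is also the authors', so the overhangs are no independent support. Per the labels' protocol, the gel fraction ran from 22 to 30 nt, so 22 nt lay at its lower edge and 21 nt outside it. The deposited table goes against a sharp limit there, since it lists 135 known and 63 predicted entries of 21 nt, and the highest mean of the table (256879 normalized reads) belongs to a known entry of 21 nt. Levels of different lengths are set side by side here as arms of a hairpin, as entries alike in sequence or pattern, and in shares of a library's reads. The part of the gel fraction in these was not tested.

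The libraries held 464658 to 1086380 normalized reads over all entries, the authors' scaled values, equal to an estimated 580011 to 3243623 reads. The lowest listed value stood for 6 reads in 11 libraries, so a listed 0 is not absence. In replicate 2 of 8106 at 35 DAF it was 0.167 normalized reads, or 0.5 of the estimated step of 1 read. The step of that library, and its 3243623 estimated reads, are therefore less certain. In 8107 at 35 DAF the estimated reads were lowest, 580011 to 1178757, and the lowest listed values were 2.69 to 4.81 normalized reads. That group also had the lowest library totals (496115 ± 31523, SD, n = 3) and 8106 at 35 DAF the highest (1030020 ± 48900), a gap that moves with the line at 35 DAF, so directions there were also computed with equal library totals. Bulk seed RNA was measured, so fewer cells of a type and less RNA per cell cannot be told apart.

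Together the 33 candidates took 0.738 ± 0.048% (SD, n = 3) of a library's normalized reads in 8106 at 15 DAF and 0.215 ± 0.027% at 35 DAF. In 8107 they took 0.667 ± 0.045% at 15 DAF and 1.47 ± 0.15% at 35 DAF. The ranges of the libraries did not overlap between the stages of either line, with the share low in 8106 and high in 8107 at 35 DAF. The library totals moved the other way, from a mean of 675710 to 1030020 in 8106 and from 623414 to 496115 in 8107. The summed normalized reads of the 33 went from 4991 ± 421 to 2209 ± 184 in 8106 and from 4151 ± 173 to 7273 ± 367 in 8107. Over all 382 predicted candidates the share of the library also was higher in 8107 at 35 DAF (3.38 to 4.35%) than at 15 DAF (1.86 to 2.15%). In 8106 it also was lower at 35 DAF (1.00 to 1.73%) than at 15 DAF (1.82 to 2.34%). Of the predicted reads, the 33 took 33.6 ± 0.8% and 37.7 ± 1.1% in 8107 at 15 and 35 DAF, and 35.1 ± 2.5% and 16.3 ± 2.5% in 8106. A few candidates made up this sum, since the 4 most abundant of each library took 63.5 to 82.9% of it. Over the 12 libraries 8 candidates had a mean of 100 or more normalized reads, 13 lay between 10 and 100 and 12 under 10. Of the 33, 12 were above 0 in all 12 libraries, and 26 passed the filter for the test (10 or more in at least 3 libraries).

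**Figure D2:**
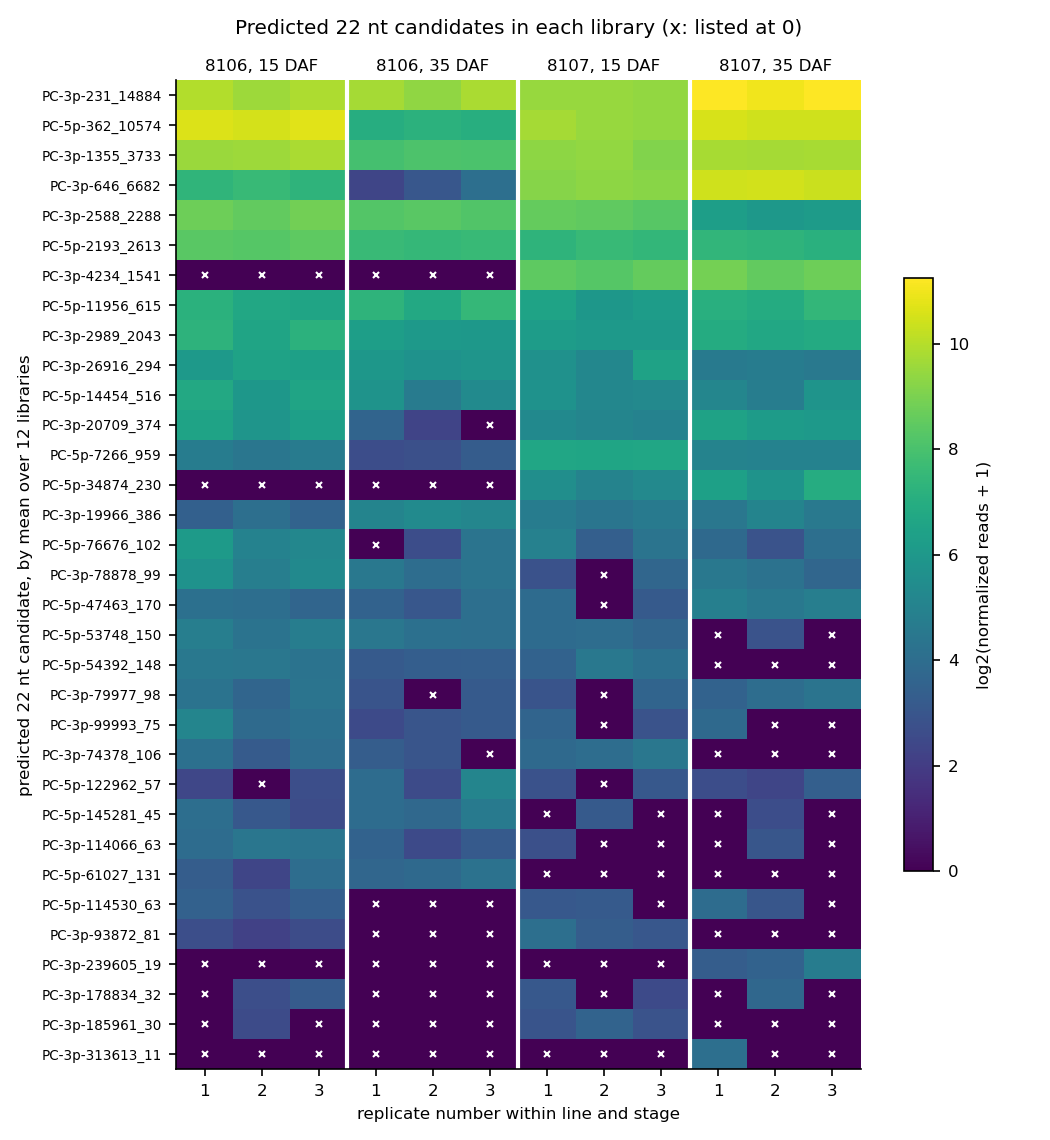
Level of each of the 33 candidates (rows, by mean level) in each of the 12 libraries (columns, grouped by line and stage), as log2(normalized reads + 1), with a cross where the table lists 0. PC-3p-4234_1541 and PC-5p-34874_230 are listed at 0 in all 6 libraries of 8106, and PC-5p-61027_131 in all 6 of 8107.

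At 15 DAF more of the tested candidates were called than of all entries, and at 35 DAF the shares lay closer. The test was limma on log2(value + 1) over all 395 tested entries with Benjamini-Hochberg adjustment, and a candidate passed at an adjusted p under 0.05; log2 differences are given ± SE. Between the lines at 15 DAF 12 of 26 candidates passed, against 22.5% of all entries, of them 5 higher in 8107 (15.7% of all entries) and 7 lower (6.84%). At 35 DAF 16 passed, against 52.4%, of them 9 higher (32.2%) and 7 lower (20.3%). The calls at 15 DAF include PC-3p-4234_1541, PC-5p-34874_230, PC-5p-61027_131 and PC-3p-114066_63, which reached 10 only in the line where they were higher. Those at 35 DAF include PC-3p-4234_1541, PC-5p-34874_230, PC-5p-61027_131 and PC-5p-145281_45, which also reached 10 in 1 line alone. The filter favoured such calls, also among all entries, so these shares are a description only. The median log2 difference of the 26 was -0.81 at 15 DAF, beside -0.09 over all entries, and -0.03 at 35 DAF, beside 0.03. The count at 15 DAF was 7 without replicate 1 and 7 without replicate 3 of 8106 at 15 DAF. Of all 395 entries 42 and 47 passed there, against 89 in the main fit. Scaling moved the split of higher and lower calls to 4 and 9 (quantile normalization) or 4 and 10 (median centring) at 15 DAF, and at 35 DAF to 12 and 5 (equal totals), 8 and 10 (median centring), 13 and 4 (voom on estimated reads) or 8 and 9 (quantile normalization). The median over all entries at 35 DAF became 1.01 with equal totals, 1.33 with voom, -0.38 with quantile normalization and -0.37 with median centring.

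From 15 to 35 DAF nearly all candidates that passed were lower in 8106, and those that passed in 8107 went both ways. In 8106 12 of 26 passed, against 36.2% of all entries, with 11 lower at 35 DAF (23% of all entries) and 1 higher (13.2%). The fall was not particular to 22 nt. Of 40 tested predicted candidates of 21 nt, 18 were lower and 4 higher in 8106, with a median of -1.09. For the 26 of 22 nt in 8106, other settings moved the count of 12 both ways. Voom on estimated reads gave 19 (18 lower, 1 higher), and equal totals gave 15 (14 lower, 1 higher). Quantile normalization gave 9, as did median centring, each time 8 lower and 1 higher. Dropping replicate 1 or replicate 3 of 8106 at 15 DAF gave 8, each time 7 lower and 1 higher. In 8107 14 passed, against 46.3%, with 8 higher (23%) and 6 lower (23.3%), or 5 higher and 6 lower after quantile normalization. The 40 of 21 nt also went both ways there, 12 higher and 10 lower. The lines' stage changes differed for 10 candidates, against 41% of all entries, with 7 more positive in 8107 (22.3%) and 3 more negative (18.7%), or 13 and 2 with equal totals and with voom. With the replicate block 15 differed, 11 more positive and 4 more negative, and the 5 added were PC-3p-79977_98 (3.85, adjusted p = 0.0132), PC-3p-78878_99 (2.97, 0.0298), PC-5p-47463_170 (2.76, 0.049), PC-5p-14454_516 (0.98, 0.0386) and PC-5p-53748_150 (-2.55, 0.0453). The median stage change was -0.95 in 8106, beside -0.24 over all entries (-0.77 with equal totals), and 0.10 in 8107, beside 0.06. The median difference of the stage changes was 0.81, beside 0.52. Among those counted as lower at 35 DAF, PC-5p-54392_148 in both lines and PC-3p-74378_106 in 8107 reached 10 in libraries of 15 DAF alone. The 5 comparisons share libraries, so their counts are not independent. PC-3p-646_6682, PC-3p-2989_2043, PC-3p-1355_3733 and PC-5p-362_10574 passed in all 5 comparisons, and PC-3p-99993_75 and PC-3p-79977_98 in none.

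**Figure D3:**
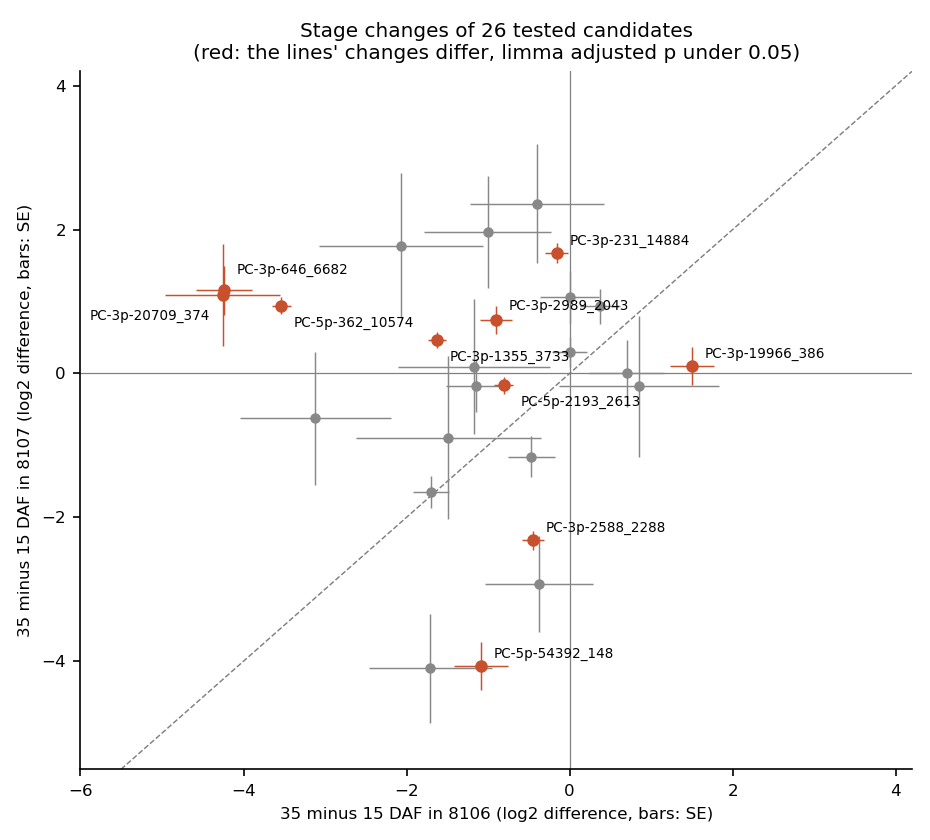
Change from 15 to 35 DAF of the 26 tested candidates in 8106 (horizontal) and 8107 (vertical), as log2 differences with SE bars; the dashed line marks equal changes. The 10 red points are those whose changes differed between the lines (limma adjusted p under 0.05), 7 of them above the line.

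PC-3p-231_14884, the miR1507-like candidate, was the most abundant by its mean and was highest in 8107 at 35 DAF. It stood at 998, 782 and 917 normalized reads in 8106 at 15 DAF and 855, 668 and 903 at 35 DAF. In 8107 it stood at 723, 730.0 and 691 at 15 DAF and 2427, 2026 and 2427 at 35 DAF. The 3 libraries of 8107 at 35 DAF lay above all other 9, and the other groups lay between 668 and 998. From 15 to 35 DAF it rose in 8107 (log2 difference 1.68 ± 0.14, adjusted p = 6.34e-06), and in 8106 the difference was -0.16 ± 0.14 (adjusted p = 0.445). It was higher in 8107 at 35 DAF (log2 difference 1.51 ± 0.14, adjusted p = 8.03e-06), and the stage changes differed between the lines (log2 difference 1.83 ± 0.20, adjusted p = 5.75e-05). At 15 DAF the libraries of 8107 lay below those of 8106 without passing (log2 difference -0.32 ± 0.14, adjusted p = 0.128), and with the replicate block this difference passed at an adjusted p of 0.0315.

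The annotated form of 22 nt had other levels. The known form mtr-miR1507-3p_L+1R-1 stood at 1809 ± 106 and 1783 ± 60.0 (mean ± SD, n = 3) in 8106 at 15 and 35 DAF, and at 2047 ± 91.9 and 890.5 ± 68.3 in 8107. At 35 DAF it was lower in 8107 (adjusted p = 6.72e-06), where the candidate was higher, and in 8107 it fell with age (log2 difference -1.20 ± 0.09, adjusted p = 3.87e-06). gma-MIR1507b-p3_2ss2CT17GA, the arm of 19 nt inside the candidate, stood at 33.7 ± 21.4 in 8107 at 35 DAF and at 5.86 ± 2.12 to 13.0 ± 7.18 in the groups with the lowest and highest of the other means. The sources used here do not tell how reads that match overlapping entries were counted, so these forms are uncertain as separate molecules.

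The miR1507-like candidate also had most of the degradome rows. A degradome library captures cut transcripts by the 5′ monophosphate of the downstream fragment, and a miRNA cuts opposite its base 10. The authors' deposited table gave 57 combinations of candidate, transcript and site for 9 of the 33 candidates, and 37 of them belonged to PC-3p-231_14884. All 37 transcripts carried symbols of resistance protein homologues in that table, 19 of RPPL1, 10 of RGA3, 6 of RGA2 and 2 of RGA1, names for NB-LRR type receptors that recognise pathogen effectors. The alignment score, where lower is a better match, ran from 2.5 to 4, and 25 of the 37 had 2 entries at the same site. Sites lay at positions 295 to 898 of the transcripts, with a median of 826. All 37 were also listed at the same transcript and site for gma-MIR1507b-p3_2ss2CT17GA, at scores of 1 to 3, of the 79 transcripts that entry had, and 10 for mtr-miR1507-3p_R-3, of its 33. The first of these entries is the candidate's first 19 bases and has fewer bases that can mismatch. Its lower scores are therefore not a better match of like length. A cut at a shared site cannot be assigned to 1 of these small RNAs, and the table names no library, so no line or stage either.

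PC-3p-646_6682, which resembles the 3p strand of MIR156 hairpins, was higher in 8107 than in 8106 at both stages. The 5p strand of MIR156, miR156 itself, represses SPL transcription factors that time the growth phases of a plant, and the 3p strand is mostly the one that is discarded. The candidate stood at 162, 189 and 159 normalized reads in 8106 at 15 DAF and 4.04, 7.37 and 16.3 at 35 DAF. In 8107 it stood at 588, 637 and 616 at 15 DAF and 1389, 1425 and 1292 at 35 DAF. No 2 groups overlapped. It was higher in 8107 at 15 DAF (log2 difference 1.85 ± 0.34, adjusted p = 0.00436) and at 35 DAF (log2 difference 7.25 ± 0.34, adjusted p = 4.05e-08). In 8106 it fell with age (log2 difference -4.24 ± 0.34, adjusted p = 4.26e-06), and in 8107 it rose (log2 difference 1.16 ± 0.34, adjusted p = 0.0195). The rise in 8107 no longer passed without replicate 1 or 3 of 8107 at 15 DAF or without replicate 1 of 8107 at 35 DAF, at adjusted p of 0.0505 to 0.0532. The stage changes differed by 5.40 ± 0.48 (adjusted p = 1.83e-05).

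Its relatives in sequence had levels of their own. ptc-MIR156b-p3_1ss13TC was higher in 8107 at both stages, by 2.17 ± 0.25 at 15 DAF and 2.08 ± 0.25 at 35 DAF (adjusted p = 1.57e-04 and 5.49e-05), but in 8106 it rose with age (log2 difference 1.25 ± 0.25, adjusted p = 0.00249). gma-MIR156o-p3_2ss21GA23TA, with the same seed, fell in 8106 from 44.3 ± 1.60 to a listed 0 in all 3 libraries at 35 DAF, and in 8107 from 137 ± 25.2 to 49.6 ± 11.9 (log2 difference -1.46 ± 0.24, adjusted p = 7.41e-04). gma-MIR156u-p3, also of that seed, stood at 13.8 ± 1.14 and 5.19 ± 4.63 in 8106 at 15 and 35 DAF, with 0 throughout 8107. The candidate had no degradome row.

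**Figure D4:**
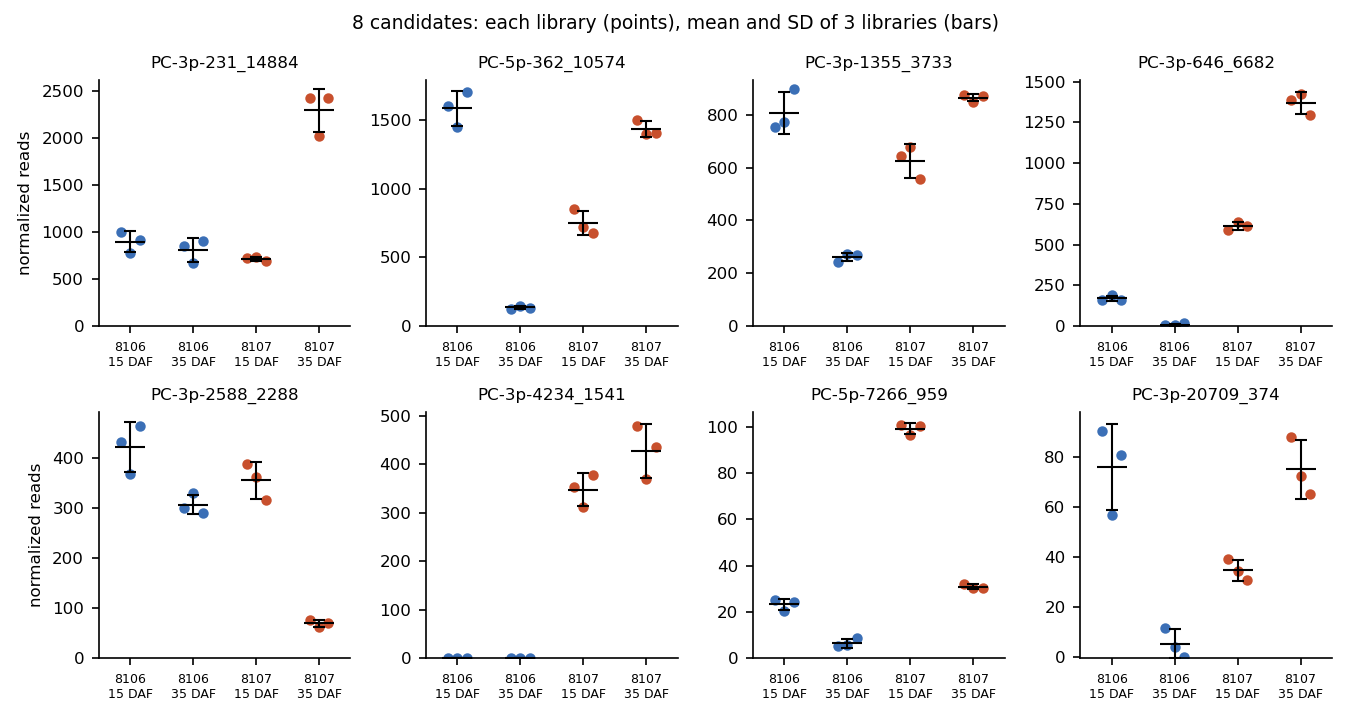
Normalized reads of 8 candidates in each of the 12 libraries (points; blue 8106, red 8107) with mean and SD of 3 libraries (bars), by line and stage, on axes of their own that start at 0 or, for PC-3p-20709_374, just below it for the SD bar. PC-3p-231_14884 is at 2026 to 2427 in 8107 at 35 DAF, and PC-5p-362_10574 and PC-3p-1355_3733 are lowest in 8106 at 35 DAF.

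PC-5p-362_10574 and PC-3p-1355_3733 shared 1 pattern, low in 8106 at 35 DAF. PC-5p-362_10574 stood in 8106 at 1603, 1450.2 and 1701 normalized reads at 15 DAF and at 126, 149 and 133 at 35 DAF, and in 8107 at 852, 720.4 and 678 at 15 DAF and at 1501, 1398 and 1402 at 35 DAF. PC-3p-1355_3733 stood in 8106 at 753, 772 and 899 at 15 DAF and at 242, 271 and 269.7 at 35 DAF, and in 8107 at 644, 679 and 556 at 15 DAF and at 874, 849 and 870.0 at 35 DAF. For both, the 3 libraries of 8106 at 35 DAF lay below all other 9. With age in 8106 the first fell by 3.53 ± 0.12 and the second fell by 1.62 ± 0.11 on the log2 scale (adjusted p = 1.18e-08 and 1.47e-06). In 8107 both rose, by 0.94 ± 0.12 and 0.47 ± 0.11 (adjusted p = 1.07e-04 and 0.00571). At 35 DAF they were higher in 8107 by 3.39 ± 0.12 and 1.72 ± 0.11 (adjusted p = 5.24e-09 and 4.11e-07). At 15 DAF both were lower in 8107 (-1.08 ± 0.12 and -0.37 ± 0.11, adjusted p = 1.09e-04 and 0.0386), and PC-3p-1355_3733 no longer passed there without any 1 of replicates 1, 2 and 3 of 8106 or 1 and 3 of 8107 at 15 DAF, or replicate 1 of 8107 at 35 DAF (adjusted p of 0.0565 to 0.151), nor with equal library totals (0.13) or voom (0.121). The lines' stage changes differed by 4.47 ± 0.16 and 2.09 ± 0.16 (adjusted p = 3.55e-08 and 3.95e-06).

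Among all 395 tested entries, PC-3p-1355_3733 was the nearest in pattern to PC-5p-362_10574, with a Pearson correlation of 0.99 of the log2(value + 1) levels over the 12 libraries, which share depth and scaling, given as a description. Next came PC-5p-15503_485 of 21 nt at 0.96 and PC-3p-23476_334 of 24 nt at 0.94. Folded onto each other, the 2 candidates formed 18 base pairs at -25.6 kcal/mol with 3′ overhangs of 2 bases on both, the third lowest energy of 266 pairs of a 5p with a 3p candidate. The 2 pairs below it were arms of 1 hairpin in the table, whereas these 2 stood under precursor indices 318 and 233. This was looked at after their values were seen. The nearest in pattern to PC-3p-231_14884 were PC-5p-102778_72, lja-MIR7539-p5_1ss14TA and PC-3p-177149_33 (0.97 each), 3 low entries listed at 0 in all groups but 8107 at 35 DAF.

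Hairpin 16 was listed in 8107 alone, with both arms. PC-3p-4234_1541, its 3p arm, stood at 352, 311 and 378 normalized reads in 8107 at 15 DAF and 479, 369 and 436 at 35 DAF. PC-5p-34874_230, its 5p arm, stood at 46.5, 31.5 and 38.7 at 15 DAF and 82.0, 53.7 and 123 at 35 DAF. In 8106 every library listed 0 for both arms, so the lines did not overlap. Both were higher in 8107 at each stage, at adjusted p of 8.86e-10 and 6.27e-10 for the 3p arm and 5.28e-06 and 1.66e-07 for the 5p arm. Both arms passed the filter through libraries of 8107 alone, and the listed zeros of 8106 add no spread. These adjusted p are therefore no support beyond the listed values. No fold is given, since the table lists no value for 8106. With age the 5p arm rose in 8107 (log2 difference 1.07 ± 0.36, adjusted p = 0.0335), a call lost without replicate 2 or 3 of 8107 at 15 DAF or 1 or 3 at 35 DAF (adjusted p of 0.083 to 0.126) or under quantile normalization (0.133), and the 3p arm gave 0.30 ± 0.21 (adjusted p = 0.288). The 3p arm took 90.0 ± 1.4% (SD, n = 3) of both arms at 15 DAF and 83.5 ± 4.9% at 35 DAF. By the rule of 0 in all 6 libraries of a line and 10 or more in at least 3 of the other, 10 of the 795 entries were in 8107 alone and 6 in 8106 alone.

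PC-3p-185961_30 differed from PC-3p-4234_1541 by A3T, C6A and A9C, where the base of PC-3p-4234_1541 comes first. It was low, at 6.65, 10.96 and 6.44 in 8107 at 15 DAF and 4.85 in 1 library of 8106 at 15 DAF, with 0 elsewhere, and was not tested. The reverse case to hairpin 16 was PC-5p-61027_131, in 8106 at 8.83, 4.16 and 15.1 at 15 DAF and at 12.1, 13.4 and 17.6 at 35 DAF, with a listed 0 in every library of 8107. It was lower in 8107 at both stages (adjusted p = 7.76e-04 and 4.72e-05), and at 15 DAF it missed the threshold when a listed 0 was set to the lowest listed value (adjusted p = 0.0577). It passed the filter through libraries of 8106 alone, and the zeros of 8107 add no spread, so these adjusted p are no further support. In the authors' deposited degradome table PC-3p-4234_1541 had 2 transcripts with the Arabidopsis locus symbol At4g09670, at a score of 3.5, and PC-5p-61027_131 had none.

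PC-3p-2588_2288, the 3p arm of hairpin 99, was low in 8107 at 35 DAF. It stood in 8106 at 433, 368 and 465 normalized reads at 15 DAF and at 301, 329.6 and 291 at 35 DAF, and in 8107 at 389, 363 and 316 at 15 DAF and at 77.5, 63.6 and 70.5 at 35 DAF. The 3 libraries of 8107 at 35 DAF lay below all other 9. It fell with age in 8107 (log2 difference -2.32 ± 0.13, adjusted p = 8.23e-07) and was lower in 8107 at 35 DAF (log2 difference -2.11 ± 0.13, adjusted p = 4.11e-07), and the stage changes differed (log2 difference -1.87 ± 0.19, adjusted p = 4.47e-05). In 8106 it also fell (log2 difference -0.45 ± 0.13, adjusted p = 0.0239), a call lost without replicate 1 or 3 of 8106 at either stage (adjusted p of 0.0625 to 0.102), under quantile normalization (0.177) and under median centring (0.316). Its 5p arm PC-5p-55460_145, of 21 nt, was listed at 0 in all 6 libraries of 35 DAF, and the 3p arm took 93.4 ± 2.5% and 96.5 ± 2.3% of both arms at 15 DAF in 8106 and 8107. These arms differ in length at the edge of the stated gel fraction, and the part of that in the share was not tested.

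PC-5p-2193_2613, the 5p arm of hairpin 51, was highest in 8106 at 15 DAF. It stood in 8106 at 334, 307 and 349 normalized reads at 15 DAF and at 193, 178 and 192 at 35 DAF, and in 8107 at 160.4, 190.4 and 174 at 15 DAF and at 170.0, 157 and 141 at 35 DAF. It was lower in 8107 at 15 DAF (log2 difference -0.91 ± 0.12, adjusted p = 4.24e-04) and fell with age in 8106 (log2 difference -0.81 ± 0.12, adjusted p = 3.30e-04), and its stage changes differed between the lines (log2 difference 0.64 ± 0.17, adjusted p = 0.0116), a call lost under quantile normalization (adjusted p = 0.293) and median centring (0.0993). At 35 DAF the difference of -0.27 ± 0.12 did not pass and turned to 0.78 with equal library totals. The other arm, PC-3p-19324_398 of 21 nt, also fell in 8106 (log2 difference -2.87 ± 0.30, adjusted p = 3.06e-05). The 3p arm's share of both arms was 23.6 ± 3.3% and 6.72 ± 2.34% in 8106 at 15 and 35 DAF without overlap of the libraries, and 16.3 ± 4.3% and 20.2 ± 2.1% in 8107, where they overlapped. These arms are 21 and 22 nt long, on either side of the lower edge of the gel fraction. The shares are given as a description and were not tested.

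**Figure D5:**
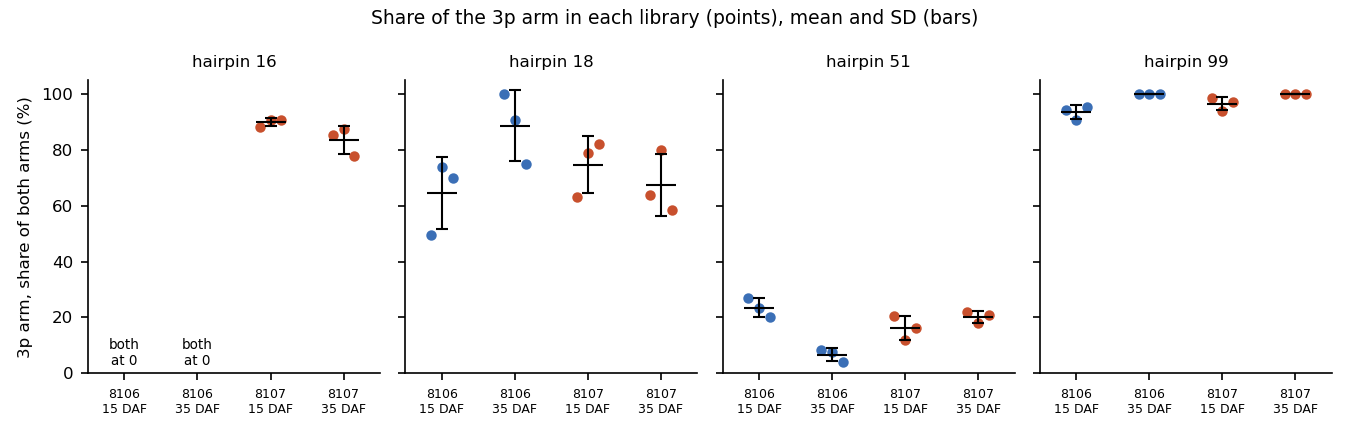
Share (%) of the 3p arm among the normalized reads of both arms in each library (points; blue 8106, red 8107), with mean and SD (bars), for 4 hairpins by line and stage. In hairpin 51 the share is 6.72% in 8106 at 35 DAF and 16.3 to 23.6% in the other groups, and hairpin 16 has no value in 8106, where both arms are listed at 0.

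Among candidates of middle level, PC-5p-7266_959 was higher in 8107 and at 15 DAF. It stood in 8106 at 25.1, 20.4 and 24.3 normalized reads at 15 DAF and at 5.25, 5.69 and 8.81 at 35 DAF, and in 8107 at 101, 96.6 and 100.3 at 15 DAF and at 32.1, 30.4 and 30.4 at 35 DAF. It was higher in 8107 at both stages, by 2.05 ± 0.22 and 2.10 ± 0.22 (adjusted p = 1.09e-04 and 2.04e-05), and with age it fell by 1.70 ± 0.22 in 8106 and fell by 1.65 ± 0.22 in 8107 on the log2 scale (adjusted p = 1.30e-04 and 1.81e-04). The difference of its stage changes was 0.06 ± 0.31, with a 95% interval of -0.64 to 0.75.

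PC-3p-20709_374 was also low in 8106 at 35 DAF. It stood in 8106 at 90.2, 56.8 and 80.6 at 15 DAF and at 11.3, 4.02 and 0 at 35 DAF, and in 8107 at 38.9, 34.2 and 30.6 at 15 DAF and at 88.0, 72.1 and 64.9 at 35 DAF. It fell with age in 8106 (log2 difference -4.25 ± 0.71, adjusted p = 7.59e-04) and was higher in 8107 at 35 DAF (log2 difference 4.25 ± 0.71, adjusted p = 5.69e-04), with stage changes that differed by 5.34 ± 1.00 (adjusted p = 0.00182). PC-3p-2989_2043 stood in 8106 at 152, 92.8 and 146 at 15 DAF and at 78.0, 64.3 and 62.3 at 35 DAF, and in 8107 at 73.1, 65.1 and 67.6 at 15 DAF and at 122, 107 and 117 at 35 DAF, and passed in all 5 comparisons. It was lower in 8107 at 15 DAF (log2 difference -0.88 ± 0.20, adjusted p = 0.0102), a call lost without replicate 1 or 3 of 8106 at 15 DAF (adjusted p of 0.0574 and 0.0515), and higher at 35 DAF (log2 difference 0.75 ± 0.20, adjusted p = 0.00917), where the value was 0.22 under quantile normalization and 0.35 under median centring and did not pass. With age it fell in 8106 (log2 difference -0.90 ± 0.20, adjusted p = 0.00444) and rose in 8107 (log2 difference 0.74 ± 0.20, adjusted p = 0.0109; adjusted p = 0.137 under quantile normalization). Its stage changes differed by 1.64 ± 0.28 (adjusted p = 9.25e-04). In the authors' deposited degradome table it had 6 transcripts at scores of 3 to 4, with 4 of TAF12, a subunit of the general transcription factor TFIID, and 1 each of PERK2, a receptor-like kinase of the cell wall in Arabidopsis, and LRX5, a cell wall extensin. All of those at a score of 4, under the 3 symbols alike, had the same site at position 867. Whether they are transcripts of 1 gene was not tested, so the symbols do not count as separate targets.

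PC-3p-19966_386 was the 1 tested candidate that rose with age in 8106. It stood in 8106 at 9.76, 16.3 and 10.9 at 15 DAF and at 32.3, 40.9 and 35.2 at 35 DAF (log2 difference 1.50 ± 0.27, adjusted p = 0.00124), and in 8107 at 25.2, 19.9 and 24.2 at 15 DAF and at 20.9, 32.2 and 22.4 at 35 DAF. Its stage changes differed (log2 difference -1.40 ± 0.38, adjusted p = 0.0135), but not with equal library totals (-0.49, adjusted p = 0.297) or voom (-0.43, adjusted p = 0.391). PC-5p-54392_148 was listed at 0 in the 3 libraries of 8107 at 35 DAF and stood at 10.4, 21.9 and 16.9 in 8107 at 15 DAF. In 8106 it stood at 21.4, 20.8 and 18.5 at 15 DAF and 8.08, 9.38 and 9.49 at 35 DAF. It was lower in 8107 at 35 DAF (adjusted p = 1.48e-05) and fell with age in 8107 (adjusted p = 6.34e-06). It reached 10 in libraries of 15 DAF alone, and the zeros add no spread, so these adjusted p add little to the listed values. The difference of its stage changes (adjusted p = 5.86e-04) did not pass when a listed 0 was set to the lowest listed value (adjusted p = 0.23). PC-3p-74378_106 was also at 0 in 8107 at 35 DAF and at 13.3, 15.1 and 20.9 in 8107 at 15 DAF, and fell with age in 8107 (adjusted p = 0.00147). The same limit holds for PC-3p-74378_106, which also reached 10 in libraries of 15 DAF alone. Its lower level in 8107 at 35 DAF (adjusted p = 0.0397) no longer passed without any 1 library of 8107, replicate 1 or 3 of 8106 at 15 DAF, or replicate 1 or 2 of 8106 at 35 DAF (adjusted p of 0.053 to 0.154). It did not pass either with a pseudocount of 5 (0.0648) or 10 (0.0882), with voom (0.172) or with a listed 0 set to the lowest listed value (0.227). In 8106 at 35 DAF it stood at 8.89, 6.70 and 0, so the lines overlapped at 0 there. In 8107 at 35 DAF the lowest listed values were 2.69 to 4.81, and the part of its lower depth in these zeros was not tested.

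Hairpins 18 and 31 held 2 candidates each. PC-3p-26916_294, the 3p arm of hairpin 18, stood at 50.3, 35.6 and 88.6 in 8107 at 15 DAF and 23.9, 25.1 and 22.4 at 35 DAF (log2 difference -1.16 ± 0.29, adjusted p = 0.0073; 0.0901 with voom), and in 8106 at 79.7 ± 10.4 and 57.1 ± 4.24. It was lower in 8107 at 35 DAF (log2 difference -1.23 ± 0.29, adjusted p = 0.0048), not so with equal library totals (-0.20, adjusted p = 0.618). Its 5p arm PC-5p-76676_102 fell with age in 8106, from 68.8, 31.2 and 36.1 to 0, 5.36 and 19.0 (log2 difference -3.12 ± 0.93, adjusted p = 0.0235), which did not pass without replicate 1 or 3 of 8106 at 15 DAF (adjusted p of 0.0801 and 0.0531). In hairpin 31, PC-5p-53748_150 fell with age in 8107 from 14.2, 15.1 and 12.1 to 0, 6.27 and 0 (log2 difference -2.93 ± 0.66, adjusted p = 0.0045) and was lower in 8107 at 35 DAF (log2 difference -3.29 ± 0.66, adjusted p = 0.00199). Both calls held under all alternatives, but with listed zeros in 8107 at 35 DAF their sizes moved with the setting. Over all alternatives they ran from -3.88 to -1.01 with age and from -4.24 to -1.25 between the lines. PC-3p-114066_63 was lower in 8107 at 15 DAF (log2 difference -3.33 ± 0.93, adjusted p = 0.0276), a call lost without any 1 of the libraries of 8106 at 15 DAF or without replicate 2 or 3 of 8107 at 15 DAF (adjusted p of 0.0709 to 0.102). It passed the filter through libraries of 8106 alone, the line where it was higher, so the call adds little to the listed values.

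The calls of 3 further candidates were lost when 1 library was left out. PC-3p-78878_99 was lower in 8107 at 15 DAF, 6.17, 0 and 12.1 against 51.6, 27.0 and 39.5 (log2 difference -3.10 ± 0.77, adjusted p = 0.0187), but not without replicate 1 or 3 of 8106 (adjusted p of 0.0656 and 0.06), and its difference with age in 8107, 1.96 ± 0.77 (adjusted p = 0.0623), passed with the replicate block (adjusted p = 0.0346). PC-5p-47463_170, the MIR5206a-like form, rose with age in 8107 from 14.2, 0 and 8.05 to 28.3, 21.5 and 27.2 (log2 difference 2.36 ± 0.82, adjusted p = 0.038), a call lost when any 1 of 7 libraries was left out, namely replicates 1, 2 and 3 of 8106 at 15 DAF, replicate 1 of 8106 at 35 DAF and the 3 of 8107 at 35 DAF (adjusted p of 0.0518 to 0.0953). PC-5p-145281_45 was lower in 8107 at 35 DAF, 0, 5.37 and 0 against 14.5, 12.7 and 23.04 (log2 difference -3.22 ± 0.98, adjusted p = 0.0193), not so without replicate 3 of 8106 or 1 or 3 of 8107 at 35 DAF (adjusted p of 0.0552 to 0.0695), with equal library totals (0.0575) or with voom (0.0791). It too passed the filter through libraries of 8106 alone, the line where it was higher. For candidates with some libraries at 0 the sizes moved with the setting, over the alternatives from -4.11 to -1.19 for PC-5p-145281_45, from 1.12 to 3.14 for PC-5p-47463_170 and from -3.87 to -1.66 for PC-3p-78878_99. The same held for PC-3p-114066_63 at 15 DAF (-4.53 to -1.27), PC-5p-76676_102 in 8106 (-4.63 to -1.69) and PC-3p-20709_374 in 8106 (-5.29 to -2.55). Between the lines at 35 DAF, PC-3p-20709_374 ran from 2.55 to 5.74.

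PC-5p-11956_615 was above 60 in all 12 libraries and rose with age in 8107 from 91.1, 61.6 and 72.5 to 136, 122 and 175 (log2 difference 0.93 ± 0.25, adjusted p = 0.0109; adjusted p = 0.089 under quantile normalization). At 15 DAF it gave -0.59 ± 0.25 between the lines (adjusted p = 0.12, and 0.0437 with the replicate block), and PC-5p-14454_516 gave -1.03 ± 0.37 (adjusted p = 0.0723, and 0.0112 with the block). PC-5p-14454_516 fell with age in 8106 (log2 difference -1.15 ± 0.37, adjusted p = 0.0318), a call lost without replicate 1 or 3 at 15 DAF or 2 or 3 at 35 DAF of 8106 (adjusted p of 0.0534 to 0.11). The call was also lost under quantile normalization (adjusted p = 0.0903), under median centring (0.0615), with the compared groups alone (0.083) and without the filter (0.0528). PC-3p-79977_98 passed in no comparison, and its difference with age in 8106, -2.07 ± 1.01 (adjusted p = 0.148), passed with the block (adjusted p = 0.048). PC-3p-99993_75 ranged from 0 to 33.5.

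The 7 candidates below the filter were low or present in 1 group. PC-3p-239605_19 was listed in 8107 at 35 DAF alone, at 8.95, 10.7 and 25.6, and so was its 5p arm PC-5p-102778_72 in hairpin 5. PC-3p-313613_11 was above 0 in 1 library, at 16.4, and shared all 12 values with another entry. PC-3p-93872_81, which holds the 21 nt candidate PC-3p-38261_210 as its last 21 bases, was listed at 15 DAF alone, at 5.58, 3.46 and 5.04 in 8106 and 16.1, 8.90 and 7.25 in 8107, as was PC-3p-38261_210. PC-5p-122962_57, PC-5p-114530_63 and PC-3p-178834_32 had means over the 12 libraries of 8.01, 5.30 and 3.24.

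The other degradome rows were few. Outside PC-3p-231_14884 the authors' deposited table had 20 combinations for 8 candidates, and 12 candidates with a mean under 10 held 4 of the 9 with any row. Over all 57 combinations the site lay opposite base 10 of the candidate in 54 (94.7%), beside 79.6% of the 2497 combinations of the whole table. The 37 of PC-3p-231_14884, on related resistance transcripts, all lay opposite base 10. The combinations are therefore not independent, and the share mostly describes that 1 candidate. The exceptions were PC-3p-239605_19 at base 9 and PC-5p-114530_63 at base 11. None had a score of 2 or less, beside 17.3% of the whole table, which also holds small RNAs of other lengths. PC-3p-79977_98 had 1 transcript with the Arabidopsis locus symbol At3g22470 at a score of 2.5 and 3 of UBC20, a ubiquitin-conjugating enzyme, at 4. PC-3p-114066_63 had 2 of TIO, a kinase needed to divide plant cells, at 4, and PC-3p-99993_75 1 each of PPIG and xnp-1, both at site 761 and a score of 4. PC-3p-239605_19 had 1 each of CYP3A28 and cyp3a40, names of vertebrate cytochrome P450 genes, both at site 658 and a score of 3.5. PC-5p-114530_63 had 1 of At3g51390, and PC-3p-78878_99 1 without a symbol. By share of sequences, 27.3% of the 33 had a degradome row, as had 20.6% of the predicted candidates of 21 nt, 1.83% of those of 24 nt and 46.8% of the known entries of 22 nt.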

How the data were processed

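Small RNA of peanut seeds was sequenced in 12 libraries, per the labels' protocols with the TruSeq small RNA kit and single reads of 50 bases. Bowtie is the tool that the submitters' processing notes name, without its version. The authors deposited a signal per library, normalized reads by the file headers; the sources used here do not tell how it was scaled. Within a library 98.2 to 99.4% of values were whole multiples of 1 step (tolerance 0.02 steps), which gave the estimated reads. The degradome table holds the authors' alignment score per site, from 0 to 4; site positions were used, and no other number. The table's 1082 lines were reduced to 795 different sequences. Predicted candidates lie in a block with a second header line, which places the values.

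limma 3.58.1 (R 4.3.3) with trend was run on log2(value + 1) with 1 mean per group, over the 395 entries that reached 10 in 3 libraries or more, with Benjamini-Hochberg adjustment in each of 5 comparisons, and was checked on simulated data. This scale understates the change of low entries above 0, and where libraries are listed at 0 the size depends on the added 1. Duplexes were folded with ViennaRNA 2.7.2. The members and lists were chosen with earlier results of these data known. Candidates were named as the 5 highest and 5 lowest calls per comparison, the 10 most abundant, those in 1 line alone, hairpin pairs and degradome scores of 2 or less; others were named after their values were seen. Entries within 3 mismatches over at least 18 bases counted as alike. Same-numbered replicates deviated together in 11 of 12 pairs (correlations of 0.039 to 0.677, threshold 0.1), in all 3 pairs of every comparison but that at 35 DAF; the labels do not say what the numbers share, so the pairing comes from the data. Alternatives were other pseudocounts, filters, scalings, a replicate block, the compared groups alone, each library left out, identical entries counted once and, added after the data were seen, voom on estimated reads and a listed 0 set to the lowest listed value. For that last setting the level used was the third lowest value above 0 in each library, and every value below it was raised to it. None of the 57 transcripts matched the reference table of gene names.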

Additional observations from a re-analysis of the deposited data

Results flagged for a closer look

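The stage change from 15 to 35 DAF differed between the lines for 10 candidates, by the test of the difference itself (limma, adjusted p under 0.05, log2 scale, 8107 minus 8106). It was more positive in 8107 for PC-3p-646_6682 (5.40), PC-3p-20709_374 (5.34, and 3.48 to 6.72 over the alternatives, since replicate 3 of 8106 at 35 DAF is listed at 0 and the size depends on the added 1), PC-5p-362_10574 (4.47), PC-3p-1355_3733 (2.09), PC-3p-231_14884 (1.83), PC-3p-2989_2043 (1.64) and PC-5p-2193_2613 (0.64). It was more negative for PC-5p-54392_148 (-2.98, a value that depends on the 1 added before the log, since 8107 at 35 DAF is listed at 0, and was -0.69 with a listed 0 set to the lowest listed value), PC-3p-2588_2288 (-1.87) and PC-3p-19966_386 (-1.40). Each group has 3 libraries, so no single library was tested as standing apart.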

How the results depend on the processing

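Of 64 calls over the 5 comparisons, 41 kept their direction and passed under every alternative run. The counts of passing candidates stayed within 1.5 times, except for 35 minus 15 DAF in 8106 with voom on estimated reads (19 against 12) and for 8107 minus 8106 at 15 DAF when 1 library was left out (7 to 13 against 12). At 35 DAF 2 differences that did not pass changed sign and passed: PC-5p-2193_2613 with equal library totals (0.78) and voom (0.79), and PC-5p-11956_615 with equal library totals (1.02) and voom (1.04). The cause was not tested. Scaling ended further calls: equal totals 4, quantile normalization 9, median centring 6 and voom 6. Without the filter 8 were lost, with the compared groups alone 9, with a pseudocount of 5 or 10 1 each, and with a listed 0 at the lowest listed value 4; leaving out 1 library lost 2 to 11. The level of PC-3p-19966_386 at 15 DAF (0.88, higher in 8107) lost its call in 10 of these alternatives, with 6 single libraries among them (replicates 1 and 3 of 8106 at 15 DAF, 1 of 8106 at 35 DAF, and 1, 2 and 3 of 8107 at 15 DAF; adjusted p of 0.0573 to 0.136), and the fall of PC-5p-54392_148 in 8106 (-1.09) in 7, with replicates 1, 2 and 3 of 8106 at 15 DAF and 1 at 35 DAF (0.0625 to 0.0862). The replicate block gave 15, 17, 13 and 15 passing candidates for the 2 line and 2 stage comparisons and 15 for the difference of stage changes, and lost no call; besides those given with the results it added PC-3p-79977_98 at 35 DAF, where the pairing did not hold in every pair, and the 5 differences of stage changes named there. Leaving out a library leaves 2 in its group, and the spread is then pooled over the groups. Depth limits what can be said of values near the lowest listed ones, up to 4.81 normalized reads, below which the table lists 0. The smallest of these, 0.167 in replicate 2 of 8106 at 35 DAF, stood for 0.5 of an estimated read and is no floor of whole reads.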
